A study of Mus musculus with 6 samples.

Results

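The 10 genes described here encode 7 cyclins, Ccna2, Ccnb1, Ccnb2, Ccnd1, Ccnd2, Ccne1 and Ccne2, and 3 cyclin-dependent kinases (CDKs), Cdk1, Cdk2 and Cdk4. They were taken by gene symbol from the deposited RNA-seq count table, which held all 10 among its 21240 genes. All 10 were also among the 11080 genes that reached 2 CPM (a count scaled to the total of its library) or more in 2 or more libraries and were tested, although Ccne1 did so only through replicate 2 of the vehicle and 2 h groups. The cells were NMuMG, an established line of epithelial cells from the mammary gland of the mouse. All groups were deprived of serum, and by the study's methods of insulin with it, for 6 h beforehand. The veh libraries then had the carrier of HCl and BSA for 2 h, the TGFβ2h libraries TGFβ1 at 5 ng/ml for 2 h, and the TGFβ12h libraries the same dose for 12 h, with 2 biological replicates in each group. Vehicle was collected at 2 h only, so the veh and TGFβ2h cells had been without serum for 8 h in all and the TGFβ12h cells for 18 h, and the time with TGFβ1 and the time without serum and insulin cannot be told apart in any comparison with the 12 h libraries.

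A cyclin binds a CDK, switches on its kinase activity and helps to choose its substrates, and most cyclins are made and destroyed once in each turn of the cell cycle. D-type cyclins with Cdk4 act in G1 and phosphorylate the retinoblastoma family of pocket proteins, which releases E2F transcription factors. E-type cyclins with Cdk2 act at the entry into S phase, cyclin A2 with Cdk2 and Cdk1 through S and G2, and B-type cyclins with Cdk1 at the entry into mitosis. TGFβ is a known inhibitor of proliferation of epithelial cells, in which it holds the cycle in G1.

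Promoters of 6 of the 10 genes were matched by symbol in RefSeq on GRCm38.p6, each from 250 bases before to 50 after the start of the gene. Those of Ccnb1, Ccnb2 and Cdk1 are shown because the 3 mRNAs were among those that fell most at 12 h, and that of Cdk4 because its mRNA did not pass the test in any comparison. Each is read 5′ to 3′ along the strand of its gene. Capitals mark the letters CCAAT (or ATTGG on the other strand), the core of the site that NF-Y recognises, TTTGAA (or TTCAAA), the core of the element shared by cell cycle genes that is named CHR, and TTTCGCGC (or GCGCGAAA), a form of the E2F site. None of the marked stretches overlaps another.
Ccnb1, minus strand, chr13:100786437-100786736: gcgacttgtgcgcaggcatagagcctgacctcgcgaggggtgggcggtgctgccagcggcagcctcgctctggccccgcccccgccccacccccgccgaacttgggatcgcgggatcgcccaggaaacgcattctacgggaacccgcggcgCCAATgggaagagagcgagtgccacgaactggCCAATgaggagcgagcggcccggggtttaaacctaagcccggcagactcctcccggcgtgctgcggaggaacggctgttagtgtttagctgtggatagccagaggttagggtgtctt
Ccnb2, minus strand, chr9:70421505-70421804: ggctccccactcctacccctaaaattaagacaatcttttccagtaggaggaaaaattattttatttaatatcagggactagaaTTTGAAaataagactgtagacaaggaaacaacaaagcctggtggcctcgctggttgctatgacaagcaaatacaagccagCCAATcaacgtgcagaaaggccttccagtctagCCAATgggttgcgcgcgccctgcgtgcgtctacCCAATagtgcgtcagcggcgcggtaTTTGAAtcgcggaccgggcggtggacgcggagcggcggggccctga
Cdk1, minus strand, chr10:69352863-69353162: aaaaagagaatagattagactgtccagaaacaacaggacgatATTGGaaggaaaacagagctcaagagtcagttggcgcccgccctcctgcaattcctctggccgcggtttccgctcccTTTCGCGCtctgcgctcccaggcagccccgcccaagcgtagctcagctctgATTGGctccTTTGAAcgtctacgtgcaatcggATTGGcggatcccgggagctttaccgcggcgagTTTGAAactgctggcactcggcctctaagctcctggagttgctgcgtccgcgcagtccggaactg
Cdk4, plus strand, chr10:127063285-127063584: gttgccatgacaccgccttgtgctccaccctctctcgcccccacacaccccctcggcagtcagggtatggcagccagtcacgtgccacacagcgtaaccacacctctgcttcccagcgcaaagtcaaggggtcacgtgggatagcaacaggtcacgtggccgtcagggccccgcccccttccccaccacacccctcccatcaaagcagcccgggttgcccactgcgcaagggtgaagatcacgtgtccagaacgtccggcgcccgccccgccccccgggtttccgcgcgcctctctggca
In the Ccnb1 window CCAAT began 99 and 67 bases before the start of the gene. In that of Ccnb2 it began 87, 54 and 21 bases before, with TTTGAA 167 bases before and again at the 5th base of the gene. The Cdk1 window held ATTGG at 208, 80 and 48 bases before the start, TTTGAA at 71 and 15, and TTTCGCGC at 131. The Cdk4 window held none of the motifs. Over all 6 promoters, which include those of Ccne1 and Cdk2, CCAAT on either strand was in 4, TTTGAA in 2 and TTTCGCGC in 1. The shares were 37.4%, 17.9% and 0.323% of 32851 promoters of 27025 genes. The remaining promoter with CCAAT was that of Cdk2, 45 bases before the start. Cdk2 mRNA did not pass the test at 12 h against vehicle, so CCAAT was not limited to genes that fell. The forms TTTGGCGC and TTCCCGCC, held by 0.514% and 2.19% of all promoters, were in none of the 6. These matches describe letters in a window and are not measured binding sites.

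The libraries held 14705886 to 23786993 counts in genes, with TMM scaling factors between 0.961 and 1.07. Of 8 epithelial markers only Krt8, Krt18, Krt19 and Cdh1 passed the filter on low values in these cells, and their summed level with the other 4 was 4963 to 5784 CPM in vehicle, 6444 to 6480 at 2 h and 10330 to 10370 at 12 h. The rise of the sum came from Krt8 and Krt18, while Krt19 fell from 1847 and 1666 CPM in vehicle to 420.4 and 490 CPM at 12 h and Cdh1, at 421 and 363 CPM in vehicle and 407 and 338 CPM at 12 h, did not pass the test. Epcam, Cldn3, Cldn7 and Esrp1, which define many epithelia, were at or near 0 in all 6 libraries. Summed markers of fibroblasts were 1.97 to 3.64 CPM over the 6 libraries and those of immune cells 4.36 to 6.89 CPM. Those of endothelial cells were 0.177 to 0.255 CPM in vehicle and 1.74 to 1.95 CPM at 12 h, a difference that was nearly all Cdh5, at 1.70 and 1.85 CPM at 12 h, with Kdr and Tek at 0 there and Pecam1 at 0.0436 and 0.103 CPM. The part of these markers in the results was not tested.

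The mitotic and S-phase members, Ccna2, Ccnb1, Ccnb2 and Cdk1, fell to a small remainder of their vehicle level after 12 h of TGFβ1, and at 2 h none of these 4 mRNAs passed the test. In these bulk libraries, fewer cells in S, G2 and M phase and less mRNA in each such cell cannot be told apart.

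Ccnb1 encodes cyclin B1, the main partner of Cdk1 at mitotic entry, on chr13:101548605-101556525 of NCBIM37, minus strand. It stood at 24.9 and 41.1 CPM in the 2 vehicle libraries, at 23.6 and 38.9 CPM at 2 h and at 0.436 and 0.616 CPM at 12 h. The vehicle and 2 h libraries spanned nearly the same range, and both 12 h libraries, with 10 and 12 counts, lay far below them. Its log2 fold change (log2FC) at 12 h against vehicle was −5.97 (SE 0.447, adjusted p = 0.000160 by the quasi-likelihood test of edgeR, Benjamini-Hochberg adjusted like all adjusted p-values here), a 62.6-fold lower mean level. The nearest vehicle and 12 h libraries differed 40.3-fold. Against the 2 h libraries the log2FC was −5.89 (SE 0.446, adjusted p = 0.000406).

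Ccna2 encodes cyclin A2 and lies on chr3:36463788-36471072. Its level was 92.7 and 190.2 CPM in vehicle, 94.2 and 172.6 CPM at 2 h, and 1.87 and 2.16 CPM at 12 h. The 2 h pair lay within the range of the vehicle pair, and the 12 h pair lay below every other library. The log2FC at 12 h was −6.13 (SE 0.520, adjusted p = 0.000241), the largest of the 10 in size, or 70.2-fold in the mean level and 43.0-fold between the nearest libraries. The 12 h libraries were lower than the 2 h libraries by a log2FC of −6.05 (SE 0.519, adjusted p = 0.000554).

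Cdk1, on chr10:68799383-68815686, encodes the kinase that drives cells into mitosis. Its mRNA measured 67.8 and 130.5 CPM in vehicle, 63.4 and 113.1 CPM at 2 h, and 4.53 and 5.24 CPM at 12 h. Ccnb2, the gene of cyclin B2 on chr9:70255496-70269361, measured 43.6 and 76.3 CPM, then 42.1 and 87.9 CPM, then 2.75 and 3.19 CPM. For both genes the vehicle and 2 h ranges overlapped and the 12 h range lay below. The log2FC at 12 h was −4.34 for each, with an SE of 0.433 and an adjusted p of 0.000436 for Cdk1 and an SE of 0.467 and an adjusted p of 0.000593 for Ccnb2. The fall was thus 20.3-fold and 20.2-fold in the mean levels, a smaller drop in size than that of Ccna2 or Ccnb1, although the difference between genes was not tested. Against the 2 h libraries Cdk1 changed by −4.18 (SE 0.431, adjusted p = 0.000953) and Ccnb2 by −4.45 (SE 0.467, adjusted p = 0.00101). Only uniquely mapped reads were counted, and RefSeq lists processed copies of Ccnb1 and Ccnb2 in the mouse genome, so reads shared with these copies would be missing from both genes.

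**Figure D1:**
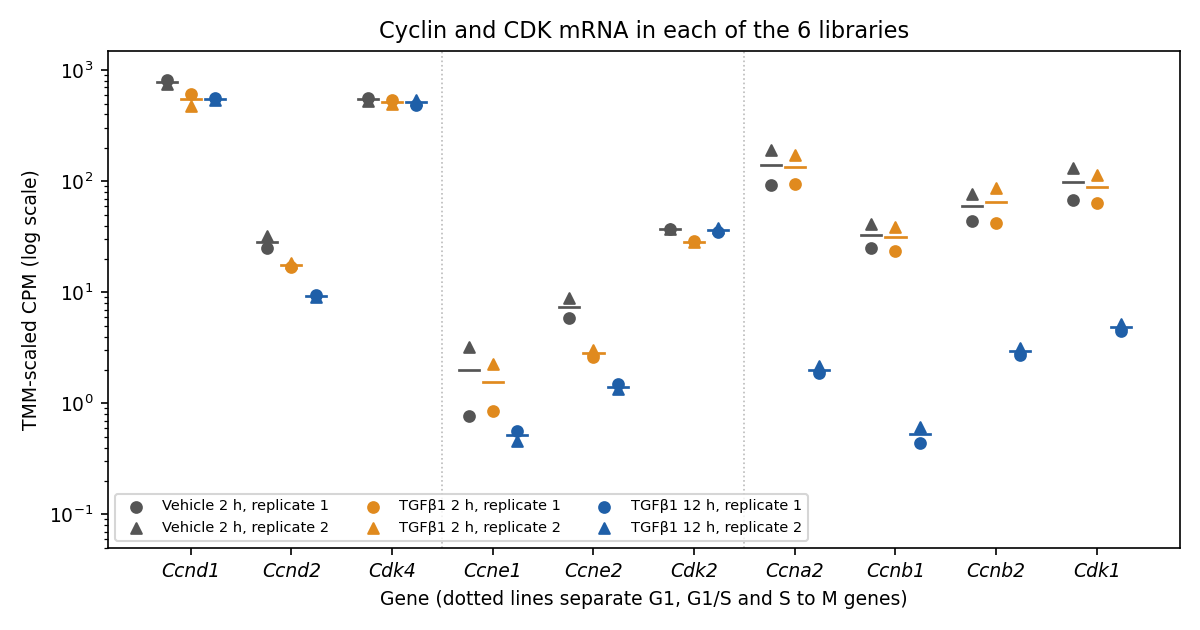
Level of each of the 10 genes (TMM-normalized CPM, log axis) in the 6 libraries; circles are replicate 1, triangles replicate 2, and short lines the mean of a group, in gray for vehicle, orange for 2 h and blue for 12 h. For Ccna2, Ccnb1, Ccnb2 and Cdk1 both 12 h points sit below all 4 other points, while the Cdk4 points lie between 486 and 566 CPM in all groups.

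Early after TGFβ1, the interval of each of these 4 genes was wide. At 2 h the 95% confidence interval of the log2FC was −0.998 to 0.83 for Ccna2 and −0.82 to 0.67 for Ccnb1. It was −0.79 to 1.02 for Ccnb2 and −1.03 to 0.69 for Cdk1. Changes within those intervals, in either direction, are compatible with this fit. Their adjusted p-values at 2 h lay between 0.794 and 0.907. In these genes the replicates stood apart, and replicate 2 was above replicate 1 in all of the vehicle and 2 h pairs. The log2 ratio of replicate 2 to replicate 1 was 0.73 to 1.04 over the 4 genes in vehicle and 0.72 to 1.06 at 2 h, and 0.20 to 0.50 at 12 h. Over all genes tested the median absolute log2 ratio was 0.153, 0.220 and 0.134 in the 3 groups. The ratio of Ccne1 was wider still, at 2.09 in vehicle and 1.4 at 2 h. Ccne2 and Ccnd2 were at 0.61 and 0.37 in vehicle and at 0.20 and 0.10 at 2 h, and Ccnd1, Cdk2 and Cdk4 had ratios between −0.35 and 0.16 over the 3 groups. With the replicate number as a block, the SE at 2 h was 0.121 to 0.143 for Ccna2, Ccnb1, Ccnb2 and Cdk1, against 0.310 to 0.382 without it, and none of the 4 passed the test (adjusted p = 0.422 to 0.736).

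Ccne2 and Ccne1, which encode the E-type cyclins of S-phase entry, were the scarcest mRNAs of the 10 in vehicle. Ccne2, on chr4:11118498-11131926, measured 5.83 and 8.92 CPM in vehicle, 2.63 and 3.03 CPM at 2 h, and 1.48 and 1.34 CPM at 12 h. The 3 groups did not overlap and stood in that order. Ccne2 fell at 2 h, by a log2FC of −1.38 (SE 0.280, adjusted p = 0.0218), the largest early change of the 10 in size, and further at 12 h, by −2.38 against vehicle (SE 0.297, adjusted p = 0.00108). These changes were 2.60-fold and 5.20-fold in the mean levels. The step from 2 h to 12 h, −1.001 (SE 0.303, adjusted p = 0.0438), was past the threshold in 2 of the 6 fits that left out 1 library each, and missed it by limma-voom (adjusted p = 0.0771) and DESeq2 (adjusted p = 0.0586).

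Ccne1, on chr7:38883003-38892553, had 13 and 51 counts in vehicle, 17 and 45 at 2 h, and 13 and 9 at 12 h. In CPM these were 0.766 and 3.25, 0.861 and 2.27, and 0.567 and 0.462. The 2 vehicle libraries were further apart than the vehicle and 12 h libraries of replicate 1. Ccne1 did not pass the test at 2 h (log2FC −0.35, SE 0.712, adjusted p = 0.786) or at 12 h (−1.93, SE 0.802, adjusted p = 0.0954), and the 95% confidence interval at 12 h ran from −3.85 to −0.01. Without vehicle replicate 1, the library with the lower level, the value at 12 h was −2.64. Over the 4 fits without 1 library that tested Ccne1 it ran from −2.64 to −1.81. With the replicate number as a block it was −1.79 (SE 0.507, adjusted p = 0.0142), past the threshold. Of the 6 other settings that tested Ccne1, the block alone called it at 12 h. It missed the threshold by limma-voom (adjusted p = 0.190) and DESeq2 (adjusted p = 0.0675).

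Of the D-type cyclins, which answer to growth factors, Ccnd2 and Ccnd1 were lower at both times, while Ccnd3, read from the list of other cyclins, was at a log2FC of −0.11 at 2 h (adjusted p = 0.685) and 0.14 at 12 h (adjusted p = 0.474). Ccnd2, on chr6:127075797-127101066, measured 25.0 and 32.4 CPM in vehicle, 17.01 and 18.3 CPM at 2 h, and 9.41 and 8.99 CPM at 12 h. Its 3 groups were separate and in descending order. Its log2FC was −0.70 at 2 h (SE 0.165, adjusted p = 0.0349), −1.64 at 12 h (SE 0.170, adjusted p = 0.000508) and −0.94 from 2 h to 12 h (SE 0.169, adjusted p = 0.00697). The last of these missed the threshold without either 12 h library (adjusted p = 0.0542 and 0.0606).

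Ccnd1, on chr7:152115836-152125774, measured 825 and 753 CPM in vehicle, 613 and 482 CPM at 2 h, and 563 and 540.0 CPM at 12 h. Both treated groups lay below vehicle and the 12 h pair lay inside the range of the 2 h pair. The log2FC was −0.53 at 2 h (SE 0.139, adjusted p = 0.0499) and −0.52 at 12 h (SE 0.139, adjusted p = 0.0232), or 1.44-fold and 1.43-fold in the mean levels. Between 2 h and 12 h it was 0.01, with a 95% confidence interval of −0.32 to 0.34 (adjusted p = 0.962). The call at 12 h held in 2 of the 6 fits that left out 1 library each, in which the log2FC was −0.59 to −0.45.

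The kinases of G1 and S phase had the smallest log2FC of the 10 at 12 h. Cdk4, the partner of the D-type cyclins, on chr10:126500590-126504976, measured 566 and 530.2 CPM in vehicle, 542 and 494 CPM at 2 h, and 486 and 541 CPM at 12 h. The ranges of all 3 groups overlapped. Its log2FC was −0.08 at 2 h (95% confidence interval −0.35 to 0.18, adjusted p = 0.671) and −0.09 at 12 h (−0.36 to 0.17, adjusted p = 0.526), an interval that does not reach the change of Ccnb1 or Cdk1. Cdk2, the partner of the E-type cyclins and of cyclin A2, on chr10:128134995-128142107, measured 37.2 and 37.5 CPM in vehicle, 29.1 and 28.2 CPM at 2 h, and 35.1 and 38.2 CPM at 12 h. Only the 2 h pair stood apart, below the other 4 libraries. At 2 h its log2FC of −0.38 (SE 0.110) missed the threshold with an adjusted p of 0.0635 (0.0291 with the replicate number as a block and 0.0476 by DESeq2), and at 12 h it was −0.03 (95% confidence interval −0.29 to 0.23, adjusted p = 0.860). From 2 h to 12 h it rose by 0.36 (SE 0.109, adjusted p = 0.0454). That call was lost in all 6 fits that left out 1 library each, at a log2FC of 0.29 to 0.41. It held in 4 of 8 other settings, among them limma-voom (adjusted p = 0.0467) and DESeq2 (adjusted p = 0.0473). Total counts, both other filters and a fit of only the 2 groups compared lost it (adjusted p = 0.0545 to 0.0926 by edgeR).

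Counted over the 10 genes, 3 fell at 2 h (Ccne2, Ccnd2 and Ccnd1), against 5.25% of all genes tested that were lower at that time. None of the 10 was higher, where 9.91% of all genes were; the count of 0 was the same at an unadjusted p under 0.05, by limma-voom and by DESeq2. With the added demand of an absolute log2FC above 1, only Ccne2 was lower, against 2.01% of all genes. These 3 calls at 2 h were lost in part or whole when a library was left out, also 1 outside the comparison. Without vehicle replicate 1, 2 h replicate 1 or 2 h replicate 2, the number called was 1, 2 and 1, and without vehicle replicate 2 or either 12 h library it was 0, with an unadjusted p under 0.05 for 4 genes in each of these fits. The log2FC over the 6 fits kept its sign, from −1.66 to −1.04 for Ccne2, −0.88 to −0.51 for Ccnd2 and −0.73 to −0.36 for Ccnd1. Without either 12 h library it was −1.385, −0.71 and −0.53, nearly as with all 6 libraries.

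At 12 h, 7 of the 10 genes fell against vehicle, all but Ccne1, Cdk2 and Cdk4, beside 21.5% of all genes tested. Of these, 6 also had an absolute log2FC above 1, beside 11.6% of all genes. None was higher by edgeR, also at an unadjusted p under 0.05 and by limma-voom or DESeq2, while 21.8% of all genes were. From 2 h to 12 h, 6 genes fell, beside 18.9% of all genes, and 5 of them had an absolute log2FC above 1, beside 9.87%. Cdk2 alone rose in that comparison, beside 15.2% of all genes. The median log2FC of the 10 was −0.26 at 2 h, −2.16 at 12 h and −1.29 from 2 h to 12 h, beside −0.01, 0.02 and 0.01 for all genes tested. The calls of Ccna2, Ccnb1, Ccnb2, Cdk1, Ccnd2 and Ccne2 at 12 h held in 6 of 6 fits that left out 1 library.

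**Figure D2:**
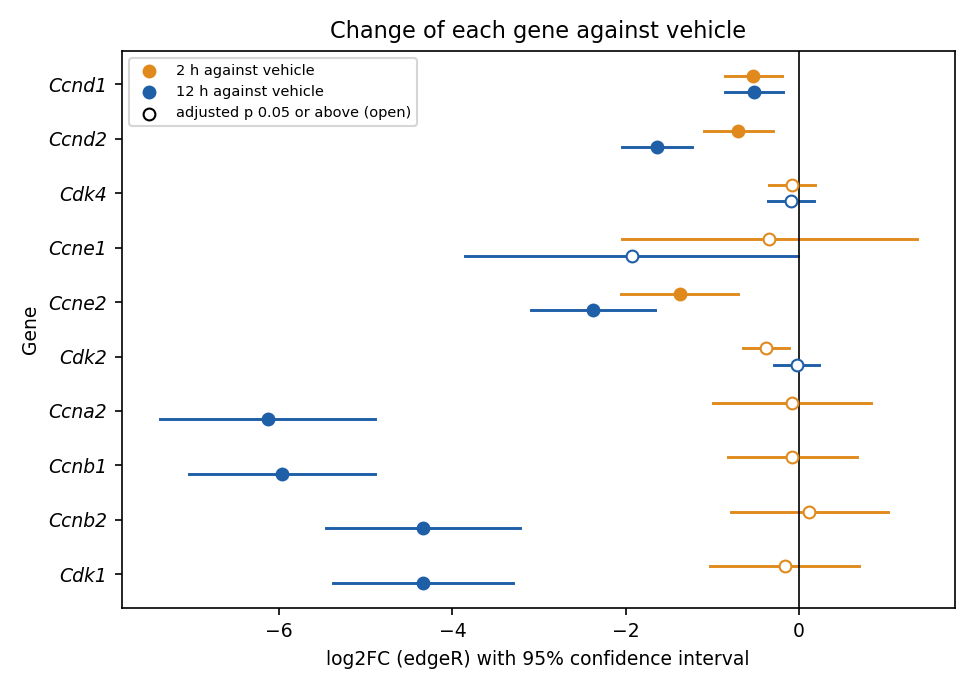
The log2FC of each of the 10 genes at 2 h (orange) and 12 h (blue) against vehicle with its 95% confidence interval (bars); filled points have an adjusted p under 0.05 by edgeR's quasi-likelihood test. At 12 h the 4 leftmost points are Ccna2, Ccnb1, Ccnb2 and Cdk1, between −6.13 and −4.34, and the Cdk4 intervals include 0 at both times.

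Levels of different genes were compared as CPM per kilobase of exon, on exon lengths that approximate the counted ones. In vehicle Ccnd1 was highest, at a mean of 205.8 CPM per kilobase, followed by Cdk4 at 168.7, Ccna2 at 40.3, Ccnb2 at 38.9, Cdk1 at 28.8, Cdk2 at 15.4, Ccnb1 at 7.82, Ccnd2 at 5.04, Ccne2 at 2.11 and Ccne1 at 0.754. The ranges of Ccna2 and Ccnb2 overlapped, as did those of Ccnb2 and Cdk1, and all other neighbours in this order were separate. At 12 h Cdk4 was highest at 158.0, then Ccnd1 at 143.8 and Cdk2 at 15.1, and Ccnb1 was lowest at 0.125, with no overlap between neighbours. Cdk2 thus moved from the 6th to the 3rd place at a nearly constant level of its own, and Ccnb1 from the 7th to the 10th. At 2 h the ranges of Cdk4 and Ccnd1, of Ccnb2 and Ccna2, of Ccna2 and Cdk1, and of Ccne2 and Ccne1 overlapped.

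As a share of the summed level per kilobase of the 7 cyclins, Ccnd1 held 76.3% and 61.5% in the vehicle libraries, 71.5% and 51.1% at 2 h, and 96.9% and 96.6% at 12 h. At 12 h the summed level of these 7 cyclins was therefore nearly all Ccnd1, although Ccnd1 itself was lower than in vehicle. Among the 3 kinases Cdk4 held 83.3% and 75.4%, 84.6% and 77.4%, and 90.5% and 90.6% of the sum. The share of Cdk1 was 9.41% and 17.5% in vehicle, 9.34% and 16.7% at 2 h, and 0.796% and 0.828% at 12 h.

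**Figure D3:**
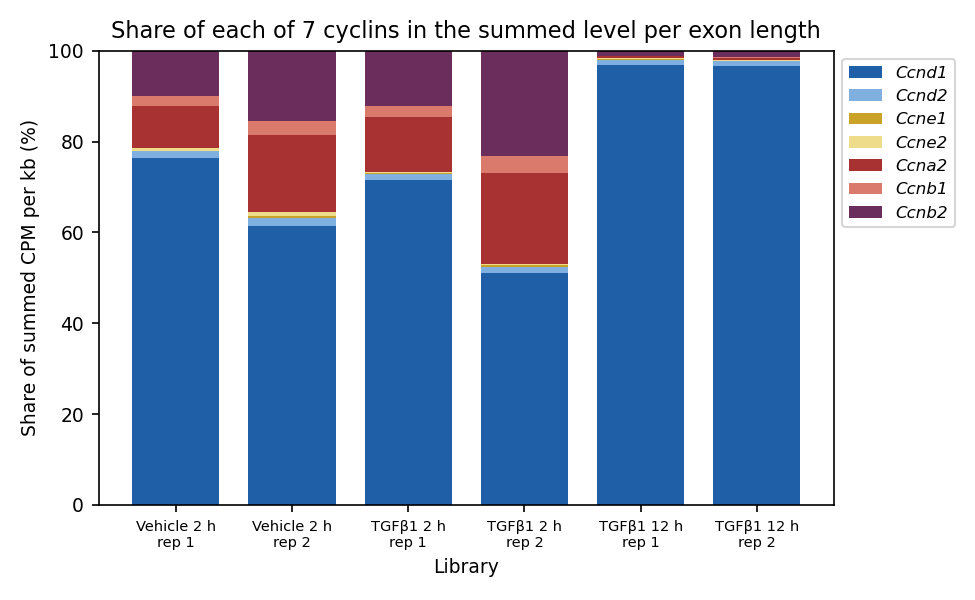
Share of each cyclin gene (percent) in the summed CPM per kilobase of the 7 cyclins, 1 stacked bar for each of the 6 libraries. Ccnd1 fills 96.9% and 96.6% of the bars at 12 h, and Ccna2, Ccnb1 and Ccnb2 together are visible mainly in the vehicle and 2 h bars.

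Ratios of counts within a library, which need no scaling between libraries, showed which partners fell in step. Ccnb2 counts per Cdk1 count were 0.644 and 0.585 in vehicle, 0.663 and 0.777 at 2 h, and 0.606 and 0.608 at 12 h, with the 12 h values inside the vehicle range. Ccnb1 counts per Cdk1 count were 0.367 and 0.315, then 0.373 and 0.344, then 0.0962 and 0.118. Ccna2 counts per Cdk1 count were 1.37 and 1.46, then 1.48 and 1.53, then 0.413 and 0.412. So Ccnb1 and Ccna2 lay lower relative to Cdk1 in both 12 h libraries than in the other 4, and Ccnb2 did not. Ccnd2 was lower relative to Ccnd1 too, with 0.0303 and 0.0430 Ccnd2 counts per Ccnd1 count in vehicle, 0.0277 and 0.0379 at 2 h, and 0.0167 and 0.0166 at 12 h.

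Among all genes tested, those with the profile nearest to a member were found by the root mean square difference of centred log2 CPM over the 6 libraries. For Ccnb1 they were Pimreg at 0.113, Nuf2 at 0.117 and Cenpf at 0.124, the latter pair encoding kinetochore proteins. For Ccnd1 they were Ing3 at 0.0526, Scrn3 at 0.0561 and Aftph at 0.0572. For Ccne1 they were Gm996 at 0.217, Hist2h2ab at 0.258 and Stmn1 at 0.280, a looser likeness.

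The other genes of the cell cycle engine were read from lists of their own, by edgeR's calls unless another tool is named. Their counts stand beside 21.8% of all genes tested that were higher and 21.5% that were lower at 12 h, and 9.91% and 5.25% at 2 h. Of 17 other cyclins, 14 were tested, and 2 rose and 2 fell at 12 h (14.3% each way, below the shares of all genes), with a median log2FC of −0.04. Ccnf, which encodes a cyclin that guides a ubiquitin ligase in G2, fell by 3.50 (mean ± SD 43.1 ± 21.2 CPM in vehicle and 3.81 ± 0.709 CPM at 12 h, n = 2). Ccny rose by 1.37, from 95.9 ± 11.8 to 247 ± 10.6 CPM, and Ccnj by 1.06, from 14.9 ± 0.204 to 31.0 ± 2.91 CPM. Both were also called higher at 2 h, at 0.67 (adjusted p = 0.0446) and 0.90 (adjusted p = 0.0109). The other gene that fell at 12 h was Ccnh, by 0.44, whose product is part of the kinase that activates CDKs.

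Of 16 other CDKs 15 were found by symbol and 13 tested, with 4 higher (30.8%) and 2 lower (15.4%) at 12 h and a median of 0.28. Those lower were Cdk8, a kinase of the Mediator complex, at −0.90, and Cdk6, the second kinase of the D-type cyclins, at −0.69 (adjusted p = 0.00259). Cdk6 went from 61.5 ± 3.61 CPM in vehicle to 38.1 ± 0.0155 CPM at 12 h, where Cdk4 did not pass the test. Higher were Cdk18 at 0.71, Cdk9, which acts in transcript elongation, at 0.59, Cdk17 at 0.48 and Cdk5 at 0.34. At 2 h edgeR called Cdk17 alone, at 0.64, limma-voom 1 gene higher, and DESeq2 3 higher and 1 lower.

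Of 7 CDK inhibitors 5 were tested, and at 12 h 2 rose and 1 fell, too few to read against the shares of all genes, with a median of 0.43. Cdkn2b, which encodes the Cdk4 and Cdk6 inhibitor p15 and is a known TGFβ target, rose from 50.7 ± 12.4 CPM in vehicle to 101 ± 16.3 CPM at 2 h and 213 ± 9.38 CPM at 12 h. Its log2FC was 1.00 at 2 h (SE 0.190, adjusted p = 0.0173) and 2.07 at 12 h (SE 0.195, adjusted p = 0.000342). Cdkn2a rose by 1.01 at 12 h, and Cdkn2c, an inhibitor of the same pair of kinases, fell by 2.58, from 39.9 ± 0.977 to 6.70 ± 2.08 CPM. Cdkn1a, the gene of p21, was at 0.43 (adjusted p = 0.0556) and Cdkn1b, the gene of p27, at −0.77 (adjusted p = 0.110). At 2 h Cdkn2b was the only inhibitor called by edgeR and 1 was called by limma-voom, while DESeq2 called 3 higher at 2 h and, at 12 h, 3 higher and 2 lower.

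Of 8 genes for enzymes that add or remove inhibitory phosphates on CDKs, for the small CKS subunits and for Mnat1, a part of the CDK-activating kinase, 3 fell at 12 h, with a median of −0.66. The phosphatase genes Cdc25c and Cdc25b changed by −6.02 and −3.51 and the Cdk1-inhibiting kinase gene Pkmyt1 by −1.58. Cdc25c went from 18.97 ± 9.50 CPM in vehicle to 0.293 ± 0.167 CPM at 12 h. At 2 h 1 was higher, Cdc25a, at 0.66. Of the 9 genes for parts of the ubiquitin ligases that destroy cyclins, 3 fell (33.3%) and 2 rose (22.2%, near the share of all genes) at 12 h, with a median of −0.31. Ube2c and Cdc20, both of the anaphase-promoting complex system, changed by −5.76 and −5.23, and Fbxo5, its inhibitor, by −2.68. Fbxw7, which targets cyclin E, was higher by 0.69 at 12 h and by 0.82 at 2 h, and Anapc10 was higher by 0.54 at 12 h.

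Of 17 genes for E2F factors, pocket proteins and activators of mitotic genes, 9 fell and 2 rose at 12 h, with a median of −0.98. E2f8, E2f2 and E2f7 had the largest falls, with a log2FC of −4.89, −4.69 and −4.44, while E2f3 and E2f4 were higher by 0.84 and 0.66. E2f2, an activating E2F, fell at 2 h as well, from 10.5 ± 2.14 to 2.00 ± 0.675 CPM, a log2FC of −2.39 (SE 0.309, adjusted p = 0.00420). E2f5 was the other gene of the list called by edgeR at 2 h, at −0.75 (adjusted p = 0.0496), where limma-voom called 1 gene lower and DESeq2 3 lower and 1 higher. All 24 genes of a G2/M list fell at 12 h, with a median of −5.28. Nusap1, Bub1 and Birc5, which act in the spindle, its checkpoint and cytokinesis, led it with −6.68, −6.19 and −6.09. Of 22 genes of a G1/S list 12 fell, with a median of −1.05, led by Tk1 of thymidine salvage at −5.02, Mcm5 of the replicative helicase at −4.11 and Cdc6 of origin licensing at −3.93. The Mcm subunits did not move as a block, since Mcm6 was at 0.38 (adjusted p = 0.207) and Mcm7 at 0.00 (adjusted p = 0.995). At 2 h the edgeR count was 0 in both lists, also by limma-voom and DESeq2, with 1 G1/S gene and 0 G2/M genes at an unadjusted p under 0.05. The lists have no test of their own and their medians are set beside the 0.02 of all genes at 12 h.

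**Figure D4:**
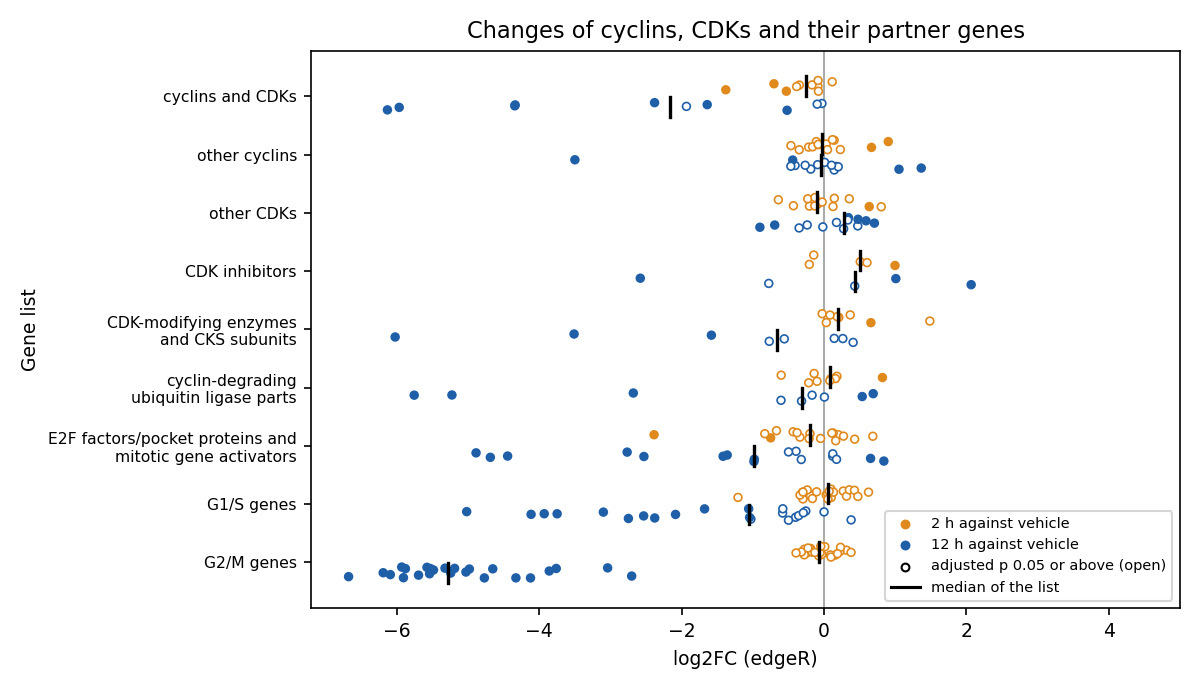
The log2FC at 2 h (orange) and 12 h (blue) against vehicle of every tested gene in each list, 1 point per gene, filled where the adjusted p was under 0.05, with a black bar at the median. At 12 h the 24 G2/M genes lie between −6.68 and −2.70, and the points of other cyclins and other CDKs gather near 0.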

How the data were processed

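RNA was measured in 6 NMuMG libraries by stranded total RNA-seq. As the study's methods state, reads were filtered and mapped to mm9 by Rsubread (subjunc, unique hits only), duplicates were taken out with samtools 0.1.19, and featureCounts gave the number of reads on the exons of each UCSC known gene, miRNAs apart. Duplicate removal can lower the counts of abundant mRNAs such as Ccnd1 and Cdk4. The values that the authors deposited are these raw counts, 14705886 to 23786993 per library.

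The counts were analysed here in R 4.3.3 by the quasi-likelihood test of edgeR 4.0.16, with TMM factors and 1 fit of the 3 groups, for genes that 2 or more libraries held at 2 CPM or above. A gene was called at an adjusted p under 0.05 (Benjamini-Hochberg over all genes of a contrast, two-sided). The study tested with limma-voom, which was run here with limma 3.58.1 as an alternative, as was DESeq2 1.42.0. The SE is the absolute log2FC over the square root of the F value. Folds of mean levels are 2 to the power of the absolute log2FC, so these means are those of the fit. Folds between the nearest libraries are ratios of CPM. Other alternatives were other scaling factors and filters, a replicate block, a fit of only the groups compared, each library left out in turn and a stricter call. Log2 CPM for the comparison of profiles used a pseudocount of 0.25 CPM. Lengths and positions came from GENCODE on NCBIM37, which is the build mm9, and sequences were handled in Python 3.11.15. The scripts were tested on simulated counts.

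The members and gene lists were chosen with earlier results of these data known. Named genes are the 10 members, the 3 called genes with the largest absolute log2FC at 12 h in each other list, the genes behind a count of 5 or fewer, and the 3 nearest profiles of Ccnb1, Ccnd1 and Ccne1. Ccnd3, Mcm6, Mcm7, Cdkn1a and Cdkn1b were named after their values were seen.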

Additional observations from a re-analysis of the deposited data

Results flagged for a closer look

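For 7 of the 10 genes the effect of TGFβ1 at 12 h differed from that at 2 h, by edgeR's test of the 12 h against the 2 h libraries, which is the difference between the 2 effects on a common vehicle group. Of all genes tested, 15.2% were higher and 18.9% lower in that test. limma-voom and DESeq2 each called 6 of the 10, without Ccne2, and edgeR with the replicate number as a block called 8, with Ccne1 added. The call of Cdk2 was lost in all 6 fits that left out 1 library and held in 4 of 8 other settings. The log2 difference was −6.05 for Ccna2, −5.89 for Ccnb1, −4.45 for Ccnb2 and −4.18 for Cdk1, and these 4 genes passed the test against vehicle at 12 h and not at 2 h. For Ccnd2 and Ccne2, which were already lower at 2 h, it was −0.94 and −1.001. For Cdk2 it was 0.36 and in the other direction, with both 2 h libraries below the other 4. The 12 h libraries differ from the 2 h libraries in the time without serum as well, and no sample separates the 2. With 2 libraries in each group, no group was large enough to test for a library far from the others.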

How the results depend on the processing

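At 12 h the number of the 10 genes called, 7, stayed within 6 to 7 in the fits without 1 library and was 6 to 8 under all other settings. At 2 h the 3 calls were the least stable. There were 0 with only the 2 groups compared (4 at an unadjusted p under 0.05), 1 under the stricter call and 0 to 2 without 1 library, and 4 by DESeq2, which added Cdk2. From 2 h to 12 h the 7 calls became 4 to 6 without 1 library. In those fits the group left with 1 library was assumed to vary like the others. By limma-voom, DESeq2, total counts, either other filter or only the 2 groups compared, the 2 h to 12 h count was 6. It was 5 under the stricter call and 7 with DESeq2 size factors in edgeR. The direction changed only for values not called in the main test. At 2 h the log2FC without 1 library ran from −0.59 to 0.52 for Ccna2, −0.48 to 0.33 for Ccnb1, −0.51 to 0.57 for Ccnb2, −0.64 to 0.38 for Cdk1 and −1.05 to 0.17 for Ccne1, which 2 of the 6 fits left out as too low. At 12 h it ran from −0.10 to 0.020 for Cdk2, and from 2 h to 12 h from −0.10 to 0.056 for Cdk4 and −0.16 to 0.20 for Ccnd1. Scaling by total counts, which moved the median of all genes to −0.12 at 2 h and −0.11 at 12 h, gave Ccnd1 −0.0054 from 2 h to 12 h, and 4, 7 and 6 genes called. It split all genes into 854 higher and 975 lower at 2 h (1098 and 582 with TMM) and 1830 and 3047 at 12 h (2414 and 2385). The cause of these differences was not tested.

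With the replicate number as a block, 4, 8 and 8 of the 10 genes were called, with Cdk2 added at 2 h (−0.38, adjusted p = 0.0291) and Ccne1 at 12 h (−1.79, adjusted p = 0.0142) and from 2 h to 12 h (−1.48, adjusted p = 0.0386). Over all genes the replicate block gave 3222, 6127 and 5373 calls in the 3 comparisons, in place of 1680, 4799 and 3775. Deviations of same-numbered libraries correlated at 0.708, 0.263 and 0.392 across genes for the 3 pairs of groups, but the labels give the numbers no shared batch, so the fit without the block was kept as the main one. The block changed no other call of the 10 genes.

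Depth limits Ccne1, with 9 to 51 counts in a library, and Ccnb1 at 12 h, with 10 and 12 counts.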
